A study of Mus musculus with 9 samples.

Results

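The genes described here are 48 components of the machinery of mitosis and cytokinesis, taken from a list of spindle, kinetochore, condensin and division genes, and 47 of them were measured among 19938 genes. The list comprises mitotic kinases and cyclins, chromosomal passengers, spindle checkpoint, centromere and kinetochore proteins, kinesins and other spindle proteins, chromosome structure proteins, regulators of anaphase entry and cytokinesis proteins. Ccnb1, which encodes cyclin B1, has no probe set named in the table used here and was not analysed. Of the pair of probe sets for Top2a, the brighter one was used.

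RNA was hybridised to 9 Affymetrix microarrays from dendritic cell (DC) progenitors sorted by flow cytometry from the pelvis, tibia and femur marrow of mice. There were 3 arrays for each of 3 populations: the Zbtb46- CDPs, the Zbtb46+ CDPs and, further along, the Pre-CD8 DCs. CDPs are common dendritic cell progenitors, and Pre-CD8 DCs are precursors of the CD8 lineage of classical DCs. All of the mice were heterozygous for a Zbtb46-GFP reporter, so every population carried the reporter allele, and the sign after Zbtb46 in a CDP name refers to that reporter of a classical DC transcription factor. The series asked for the expression signatures of these progenitors along the developmental axis. The labels give no treatment, age or sort gates, and do not tell different animals or pools from repeat runs of the same RNA. The p-values thus reflect only how these arrays vary, which may be technical. Within each CDP population, replicate 1 also differed from the other arrays in sex-linked transcripts, as given below. The 3 Pre-CD8 DC arrays were alike in these transcripts. The values are log2 of the deposited signal, and a difference of 1 on this scale is a doubling of signal. A gene was called higher or lower at an adjusted p under 0.05 in a limma model fitted to all genes.

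Cells that enter mitosis condense their chromosomes, attach them through kinetochores to the microtubules of the spindle, and hold back the separation of sister chromatids until a checkpoint is satisfied. Cyclin-dependent, Aurora and Polo-like kinases drive these events, and the anaphase-promoting complex (APC/C) ends them by marking cyclins and securin for destruction. Transcripts of this machinery accumulate late in the cell cycle, so in a mixed population their level depends on how many cells are near division. Dendritic cell progenitors of the bone marrow are known to be dividing cells. In RNA from sorted populations, fewer cells that express a gene and less of its RNA per cell cannot be told apart.

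Late cell cycle genes are known for promoters that carry cell cycle homology region letters, TTTGAA or TTCGAA, and CCAAT boxes. Promoters of 300 bases, from 250 before to 50 after the transcription start, were available from RefSeq (GRCm38.p6) for 41 of the 47 genes, and were searched for these 3 motifs on both strands. Those of Ccna2, Aurkb, Tpx2, Smc4, Spc24 and Kif20a were not used here. The letters TTTGAA stood in the promoters of 32 of the 41 genes (78.0%), against 17.3% of all tested genes with a promoter. CCAAT stood in 28 of 41 (68.3%), against 41.7%, and TTCGAA in 3 of 41 (7.32%), against 2.14%. Different motifs overlapped nowhere in these promoters. Of the 45 matches to TTTGAA, counted over 43 promoters of these genes, 33 began between 60 bases before and 40 bases after the start. Ect2 and Prc1 have overlapping promoters from different starts, so the same letters are counted again there. The stretches below are the 250 bases before the start of Mki67 (chr7:135716380-135716629, minus strand), Ube2c (chr2:164769679-164769928, plus strand), Kif23 (chr9:61946800-61947049, minus strand) and Birc5 (chr11:117848987-117849236, plus strand), written along the gene's strand. They are shown because all 4 genes rose in Zbtb46+ CDPs while their promoters differ. Capitals mark TTTGAA and CCAAT or their reverse complements, TTCAAA and ATTGG.
Mki67: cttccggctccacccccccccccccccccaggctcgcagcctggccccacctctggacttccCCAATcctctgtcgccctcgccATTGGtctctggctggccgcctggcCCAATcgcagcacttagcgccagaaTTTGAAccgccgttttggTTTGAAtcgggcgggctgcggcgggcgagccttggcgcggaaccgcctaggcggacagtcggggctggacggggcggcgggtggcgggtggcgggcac
Ube2c: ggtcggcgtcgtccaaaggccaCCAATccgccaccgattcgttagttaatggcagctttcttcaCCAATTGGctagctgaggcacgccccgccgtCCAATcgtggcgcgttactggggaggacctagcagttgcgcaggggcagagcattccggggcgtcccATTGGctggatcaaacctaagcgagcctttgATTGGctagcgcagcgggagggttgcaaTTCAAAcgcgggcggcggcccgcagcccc
Kif23: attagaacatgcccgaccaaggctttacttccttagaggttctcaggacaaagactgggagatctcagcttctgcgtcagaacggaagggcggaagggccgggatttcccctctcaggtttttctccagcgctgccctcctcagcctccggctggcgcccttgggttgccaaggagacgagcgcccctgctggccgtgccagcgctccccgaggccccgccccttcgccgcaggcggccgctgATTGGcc
Birc5: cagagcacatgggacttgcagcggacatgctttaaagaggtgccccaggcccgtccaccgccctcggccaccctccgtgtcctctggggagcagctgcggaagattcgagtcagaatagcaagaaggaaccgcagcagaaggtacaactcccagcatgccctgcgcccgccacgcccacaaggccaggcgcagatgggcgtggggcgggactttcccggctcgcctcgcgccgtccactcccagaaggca
Mki67 holds TTTGAA at 2 places and CCAAT at 3, and Ube2c holds the reverse complement of TTTGAA once and CCAAT 6 times. Kif23 has its TTTGAA after the start and outside the printed stretch, and Birc5 holds none of the 3 motifs in its whole 300-base window. Among the 8 genes that rose in Zbtb46+ CDPs, 6 had a promoter in the table and 3 of these 6 held TTTGAA. The share was 9 of 13 (69.2%) among genes called in any pair of populations, and 23 of 28 (82.1%) among genes called in none. These matches describe letters in a window and are not shown to be sites that a factor uses.

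The array of replicate 1 of the Zbtb46+ CDPs stood apart from the other 2 of its group in these genes. It was below both in 35 of 47 of them (74.5%, against 40% of all genes), and 15 of them lay more than 0.5 below the mean of the other 2 (6.41% of all genes). The shortfall was 1.12 for Bub1, a checkpoint kinase, 1.04 for the condensin gene Smc2, 0.96 for the spindle protein gene Hmmr and 0.92 for the spindle motor gene Kif11. Plk1 and Ube2c were instead 0.37 and 0.35 higher in that array. Lying below both others was not particular to it. Replicate 2 of the Pre-CD8 DCs did so in 66% of the genes (28.2% of all genes), and replicate 2 of the Zbtb46- CDPs in 61.7% (32.1% of all genes). What set it apart was size: in those arrays only 1 and 0 genes lay more than 0.5 below. Replicate 1 of both CDP populations was also low in Xist, with a log2 signal of 5.30 in Zbtb46+ and 5.59 in Zbtb46- CDPs, against 11.85 to 12.29 in the other 7 arrays. The Y-linked gene Eif2s3y was high in the same 2 arrays, at 6.51 in Zbtb46+ and 6.92 in Zbtb46- CDPs, against 3.63 to 3.78 in the other 7, so these arrays differ from the rest in the sex-linked transcripts measured. Neutrophil genes were high in those arrays: the mean log2 signal over 12 markers was 9.65, 7.99 and 8.33 in the 3 Zbtb46- arrays, 10.37, 7.42 and 7.28 in the 3 Zbtb46+ arrays and 6.43 to 7.05 in Pre-CD8 DCs. Of the 12 markers, 10, 6 and 5 in Zbtb46+ arrays and 11, 7 and 8 in Zbtb46- arrays lay above the table median of 6.82. Erythroid, B cell, T and NK cell, and basophil and mast cell marker lists averaged 6.71 or less in every array, but single members were brighter. Nkg7 read 9.17 in Zbtb46- and 9.02 in Zbtb46+ CDPs in the arrays low in Xist. It read 7.13 to 8.03 in the other CDP arrays and 5.89 to 6.27 in Pre-CD8 DCs. Cd79b read 8.11 to 9.14 over all arrays. The brightest basophil and mast cell marker read 8.73 to 9.04 in Zbtb46- CDPs. The 5 plasmacytoid DC markers averaged 8.26 to 8.75 over all arrays. The 5 monocyte markers averaged 9.91 to 10.04 in Zbtb46- CDPs, 9.80 to 10.40 in Zbtb46+ CDPs and 8.56 to 8.69 in Pre-CD8 DCs, and between the CDP populations Fn1, Klf4 and Ccr2 rose in Zbtb46+ CDPs by 1.45, 1.35 and 0.69 while F13a1 fell by 1.87 on the log2 scale. The 12 DC progenitor and DC markers averaged 8.42 to 8.65 in Zbtb46- CDPs, 9.74 to 10.21 in Zbtb46+ CDPs and 10.86 to 10.88 in Pre-CD8 DCs. The part that the neutrophil or monocyte signal or the source of these arrays has in the results was not tested. Counts of called genes among the 47 are therefore given with and without the 2 arrays low in Xist. Most counts for the related lists are given with all arrays only. The Pre-CD8 DC arrays with Ngp and S100a9 signal remain both with and without those 2 arrays.

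**Figure D1:**
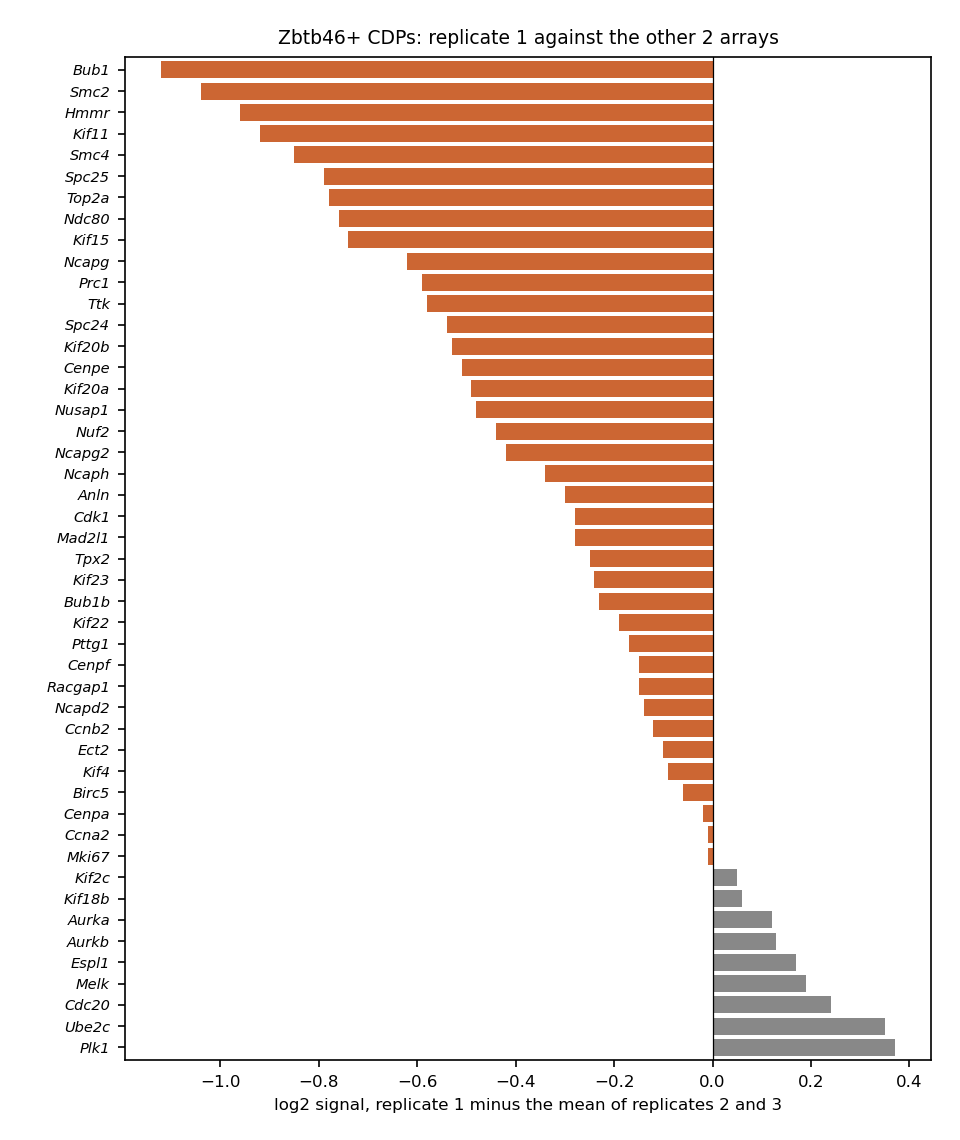
Bars give, for each of the 47 mitosis genes, the log2 signal of replicate 1 of the Zbtb46+ CDPs minus the mean of replicates 2 and 3. Bub1 is lowest at -1.12 and Plk1 highest at 0.37, and 15 genes lie more than 0.5 below 0.

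The shortfall of that array was not shared by all roles. Its median was -0.53 for the spindle-associated proteins, -0.52 for chromosome structure, -0.51 for the centromere and kinetochore, -0.43 for the checkpoint and -0.24 for the kinesins. It was 0.04 for the passenger complex, 0.06 for kinases and cyclins and 0.21 for anaphase entry. Replicate 1 of the Zbtb46- CDPs did not share it: there the median of the 47 genes was 0.13 above the mean of the other 2 arrays, and none lay more than 0.5 below it.

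None of the 47 genes was dim: the lowest log2 signal of any of them in any array was 7.88, for Prc1 in a Pre-CD8 DC array, above the table median of 6.82. The F test over the 3 populations called 13 of the 47 (27.7%), against 19.1% of all genes. In at least 1 of the 3 pairwise comparisons 15 passed, and 32 passed in none. The share of all genes that passed in at least 1 is not given, so these pairwise counts are not set against a background. The median residual SD was 0.176 for the mitosis genes and 0.136 for all genes.

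**Figure D2:**
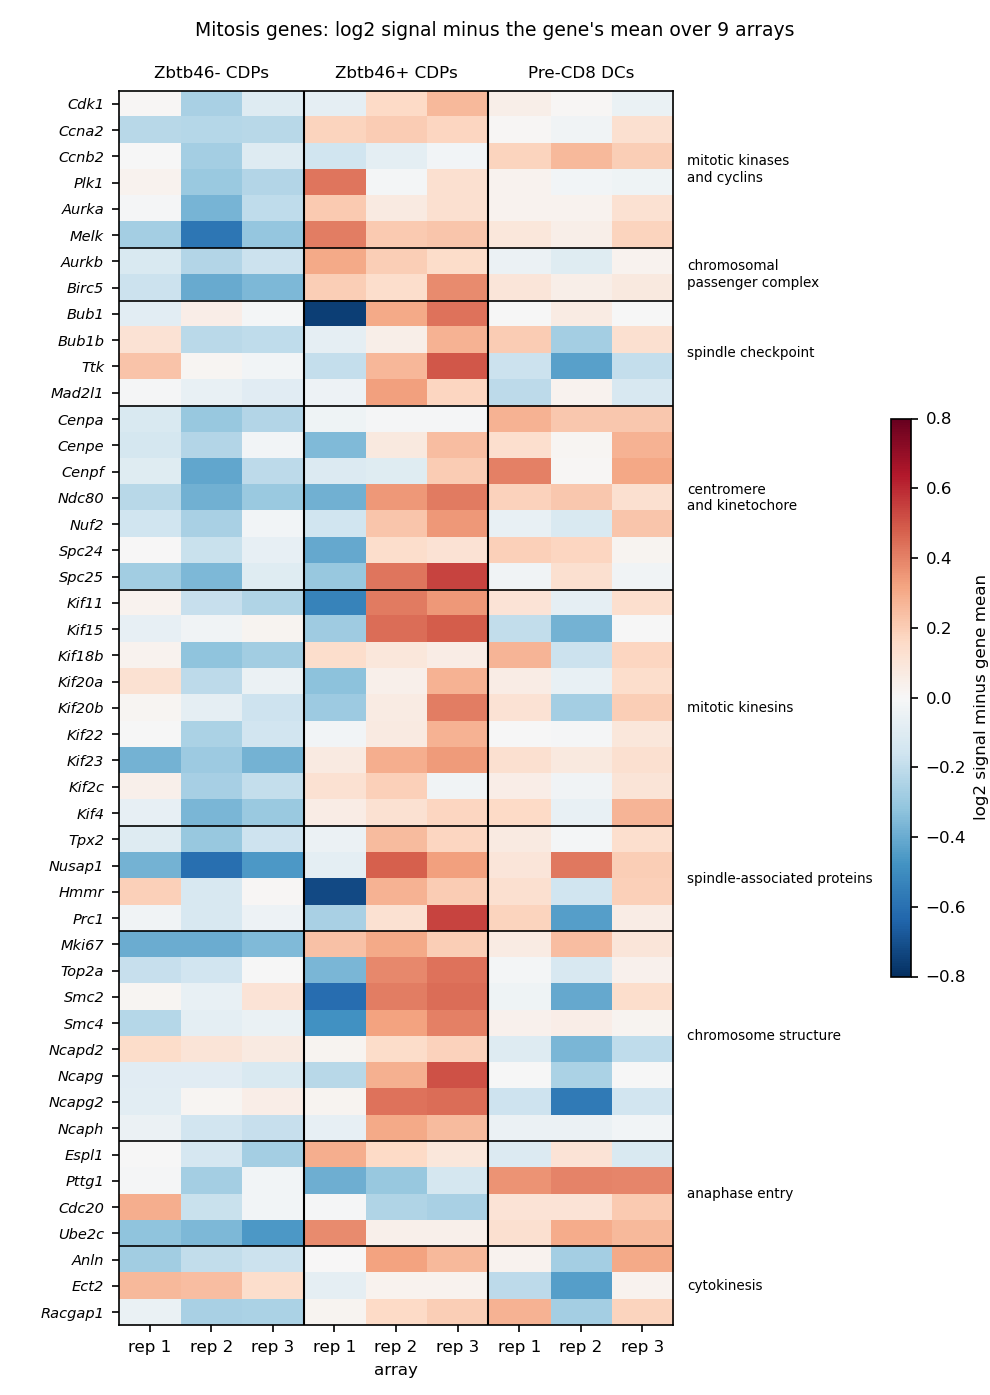
Colours give the log2 signal of each of the 47 mitosis genes in each array minus that gene's mean over the 9 arrays, grouped by role. Replicate 1 of the Zbtb46+ CDPs is the low column for many kinetochore, kinesin and condensin genes, while Mki67, Kif23 and Ccna2 are high in all 3 Zbtb46+ arrays.

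Comparing Zbtb46+ with Zbtb46- CDPs asked what differs within the CDP population by reporter. Of the 47 genes, 8 rose in Zbtb46+ CDPs (3.85% of all genes were called higher) and 0 fell (10.6% of all genes were called lower). The 8 were Ccna2, Melk, Aurkb, Birc5, Kif23, Nusap1, Mki67 and Ube2c. The median difference was 0.24, against 0.04 over all genes, and 43 of 47 were positive. At an unadjusted p under 0.05, 21 were higher (10.9% of all genes) and 0 lower (18.3% of all genes). In 16 of 47 genes all 3 Zbtb46+ arrays lay above all 3 Zbtb46- arrays (11.8% of all genes), and in 1, Ect2, all 3 lay below (17.4% of all genes).

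Mki67, which encodes the Ki-67 protein that coats mitotic chromosomes and marks cycling cells, had a log2 signal of 12.64, 12.71 and 12.60 in Zbtb46+ CDPs, against 12.01, 12.01 and 12.05 in Zbtb46- CDPs. The groups were well apart, and Mki67 rose by 0.63, or 1.55-fold (SE 0.0723, limma adjusted p = 0.000686). Nusap1, which bundles spindle microtubules, read 11.08, 11.64 and 11.49 in Zbtb46+ CDPs, against 10.78, 10.56 and 10.70 in Zbtb46- CDPs. Its arrays did not overlap, although replicate 1 of the Zbtb46+ CDPs was the lowest of its group. Nusap1 rose by 0.73, or 1.65-fold (SE 0.147, limma adjusted p = 0.0109).

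Among kinases and cyclins, Melk, a kinase of proliferating cells, and Ccna2, which encodes cyclin A2, rose, and the other 4 measured genes were not called. Melk had a log2 signal of 9.62, 9.42 and 9.43 in Zbtb46+ CDPs, against 8.94, 8.63 and 8.90 in Zbtb46- CDPs, a rise of 0.67 (SE 0.0995, limma adjusted p = 0.00252). Ccna2 had 11.57, 11.59 and 11.56 in Zbtb46+ CDPs, against 11.17, 11.16 and 11.17 in Zbtb46- CDPs. Replicates of Ccna2 lay within a few hundredths of each other in each group, and it rose by 0.41 (SE 0.0659, limma adjusted p = 0.00375). Aurka, the spindle pole kinase, differed by 0.33 and just missed the threshold (limma adjusted p = 0.0521).

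Both listed genes of the chromosomal passenger complex, which corrects faulty spindle attachments and guides cytokinesis, rose. Birc5, which encodes survivin, had 11.43, 11.37 and 11.61 in Zbtb46+ CDPs, against 11.06, 10.83 and 10.87 in Zbtb46- CDPs, and rose by 0.55 (SE 0.0873, limma adjusted p = 0.00343). Aurkb, which encodes its kinase, had 11.86, 11.75 and 11.70 in Zbtb46+ CDPs, against 11.43, 11.32 and 11.38 in Zbtb46- CDPs. No array overlapped for either gene, and Aurkb rose by 0.39 (SE 0.0722, limma adjusted p = 0.00672). Cdca8 and Incenp, of the same complex, were among the further mitosis genes described below. Cdca8 rose by 0.53 (SE 0.0974, limma adjusted p = 0.00698), while Incenp differed by 0.24 and was not called (limma adjusted p = 0.16).

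Of the 9 kinesins, motors that move spindle microtubules and chromosomes, Kif23 rose. Kif23, the motor of the central spindle that is needed for cytokinesis, had 11.47, 11.69 and 11.74 in Zbtb46+ CDPs, against 11.02, 11.11 and 11.02 in Zbtb46- CDPs. The difference was 0.58 (SE 0.0822, limma adjusted p = 0.00192). Among the 4 genes of anaphase entry, Ube2c, the ubiquitin-conjugating enzyme of the APC/C, rose. It had 9.48, 9.14 and 9.14 in Zbtb46+ CDPs, against 8.78, 8.74 and 8.64 in Zbtb46- CDPs, a difference of 0.53 (SE 0.105, limma adjusted p = 0.00954). The 4 checkpoint genes, the 7 centromere and kinetochore genes and the 3 cytokinesis genes had no call in this comparison, with differences of 0.01 to 0.21, 0.03 to 0.47 and -0.22 to 0.41.

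**Figure D3:**
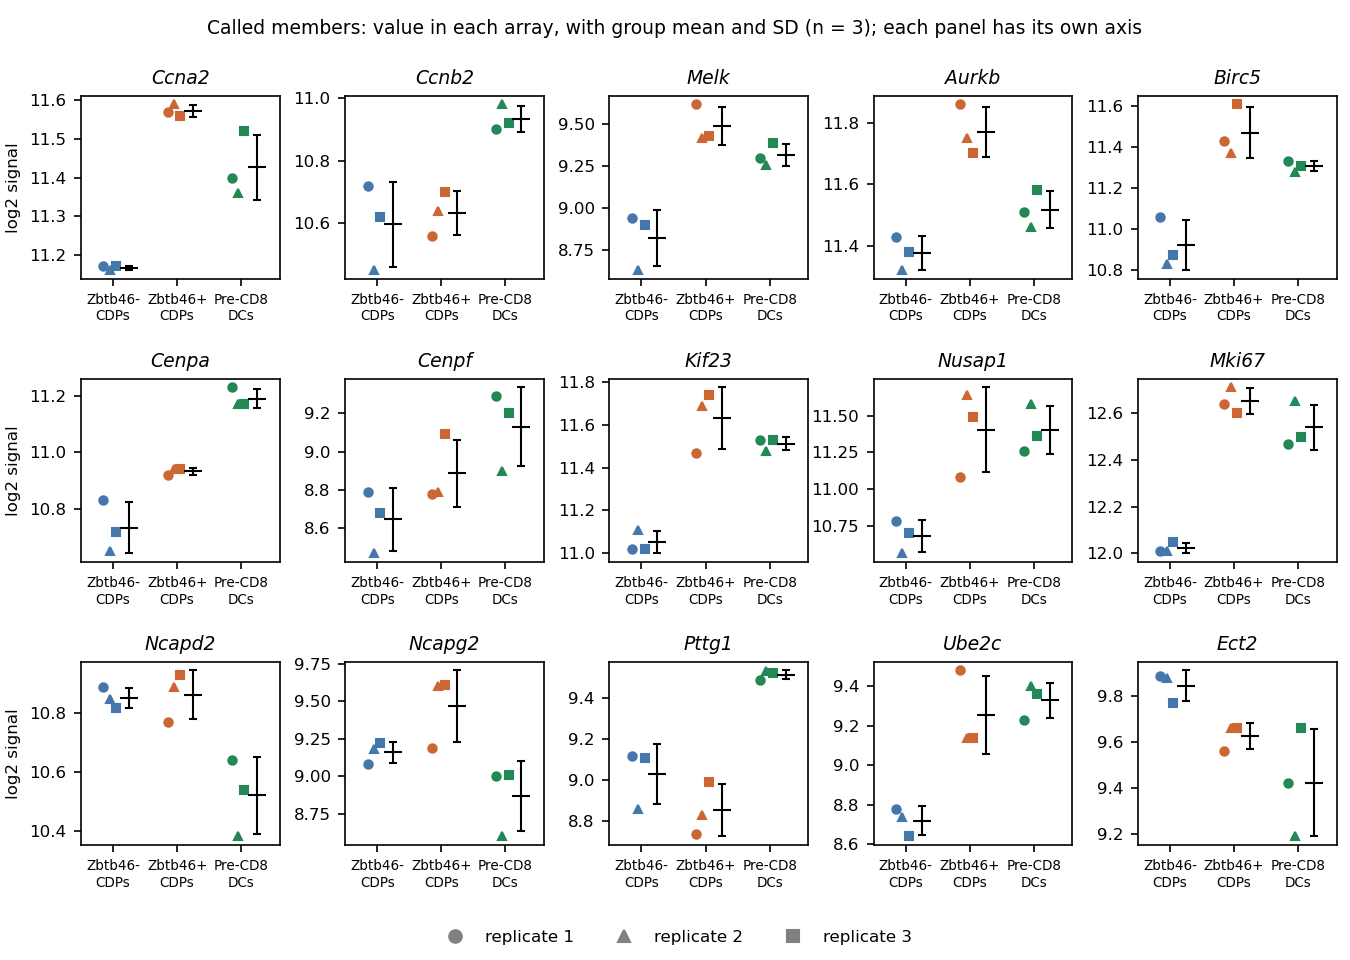
Points give the log2 signal in each array of the 15 mitosis genes called in at least 1 pairwise comparison, for the Zbtb46- CDPs, the Zbtb46+ CDPs and the Pre-CD8 DCs along the developmental axis, with bars at the group means. Mki67, Ccna2 and Melk step up between the 2 CDP populations, Pttg1 is highest in Pre-CD8 DCs and Ect2 is highest in Zbtb46- CDPs.

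Without the 2 arrays low in Xist, a setting chosen with the values known, 25 of the 47 genes were higher in Zbtb46+ than in Zbtb46- CDPs (8.71% of all genes) and 0 lower (13.8% of all genes). The 25 included all 8 of the calls above. Leaving out replicate 1 of the Zbtb46+ CDPs alone also gave 25 (10% of all genes) with all 8 among them. With both arrays low in Xist left out, kinesins had 6 of 9 called higher, chromosome structure 5 of 8, kinases and cyclins 5 of 6 and the kinetochore 3 of 7. With that replicate 1 alone left out, these counts were 5, 6, 3 and 3. Ndc80, which encodes a core part of the kinetochore's microtubule attachment, was higher by 0.72 without the arrays low in Xist (SE 0.0697, limma adjusted p = 0.000704). With all arrays Ndc80 read 9.29, 10.02 and 10.09 in Zbtb46+ CDPs, against 9.45, 9.29 and 9.38 in Zbtb46- CDPs. Replicate 1 alone overlapped the Zbtb46- range, and the difference with all arrays did not pass. Kif11, the motor that pushes spindle poles apart, was higher by 0.60 without those arrays (SE 0.0870, limma adjusted p = 0.0035). It read 10.55, 11.50 and 11.43 in Zbtb46+ CDPs, against 11.11, 10.90 and 10.84 in Zbtb46- CDPs, so replicate 1 fell below the whole Zbtb46- group.

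Pre-CD8 DCs were next compared with Zbtb46+ CDPs, the later step of the axis. This comparison uses the same Zbtb46+ arrays as the previous one. Here 1 gene of 47 rose in Pre-CD8 DCs (4.76% of all genes) and 2 fell (1.86% of all genes). The median difference was -0.08, against -0.03 over all genes, and 34 of 47 were negative. At an unadjusted p under 0.05, 4 were higher (12.2% of all genes) and 5 lower (6.89% of all genes). All 3 Pre-CD8 DC arrays lay above all 3 Zbtb46+ arrays in 4 genes (12.6% of all genes) and below in 6 (10.3% of all genes).

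The rise was that of Pttg1, which encodes securin, the inhibitor that keeps separase inactive until anaphase. Pttg1 had a log2 signal of 9.49, 9.53 and 9.52 in Pre-CD8 DCs, against 8.74, 8.83 and 8.99 in Zbtb46+ CDPs. The groups did not overlap, and it rose by 0.66, or 1.58-fold (SE 0.0947, limma adjusted p = 0.00387). It was called in all 19 settings tried for this comparison, with differences of 0.55 to 0.73. Espl1, which encodes separase, differed by -0.22 and was not called.

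The 2 genes that fell, Ncapd2 and Ncapg2, encode non-SMC subunits of condensin I and condensin II, the complexes that compact mitotic chromosomes. Ncapg2 read 9.0, 8.60 and 9.01 in Pre-CD8 DCs, against 9.19, 9.60 and 9.61 in Zbtb46+ CDPs, and fell by 0.60 on the log2 scale (SE 0.144, limma adjusted p = 0.0412). Ncapd2 read 10.64, 10.38 and 10.54 in Pre-CD8 DCs, against 10.77, 10.89 and 10.93 in Zbtb46+ CDPs, and fell by 0.34 on the log2 scale (SE 0.0830, limma adjusted p = 0.0421). Neither pair of groups overlapped. Both calls depended on the setting: of 19 settings, Ncapg2 passed in 7 and Ncapd2 in 6, and leaving out any 1 of the 9 arrays other than replicate 1 of the Zbtb46+ CDPs ended both.

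Mki67 differed by -0.11 in this comparison (95% interval -0.27 to 0.05, limma adjusted p = 0.468), and Nusap1 by 0.00 (95% interval -0.34 to 0.33, limma adjusted p = 0.991). Aurkb read 11.51, 11.46 and 11.58 in Pre-CD8 DCs, against 11.86, 11.75 and 11.70 in Zbtb46+ CDPs. Its arrays did not overlap, but the difference of -0.25 did not pass (SE 0.0722, limma adjusted p = 0.0785). The differences of Ccna2, Melk, Birc5, Kif23 and Ube2c were -0.14, -0.17, -0.16, -0.12 and 0.08, and none of the 5 was called.

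Without the 2 arrays low in Xist, 13 genes were lower in Pre-CD8 DCs than in Zbtb46+ CDPs (7.87% of all genes) and 4 higher (12.5% of all genes). Chromosome structure accounted for 7 of the 13, and these included all 6 condensin subunits on the list, a group picked out after its values were seen. The 6 were Smc2, Smc4, Ncapd2, Ncapg, Ncapg2 and Ncaph, with differences of -0.74 to -0.32. Leaving out replicate 1 of the Zbtb46+ CDPs alone also gave all 6, and 12 lower genes in all (4.35% of all genes). Ncapd3 and Ncaph2, condensin genes among the further mitosis genes described below, differed by -0.36 and 0.15 with all arrays. Neither was called, and Ncaph2 went the other way. Smc4, which encodes an ATPase shared by both condensins, read 11.37, 11.39 and 11.36 in Pre-CD8 DCs, against 10.85, 11.66 and 11.74 in Zbtb46+ CDPs. The Pre-CD8 DC arrays lay between replicate 1 and the other 2 Zbtb46+ arrays, and the difference without the arrays low in Xist was -0.33 (SE 0.0576, limma adjusted p = 0.00875).

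Top2a, which encodes the topoisomerase that untangles sister chromatids, behaved likewise. It read 11.18, 11.07 and 11.23 in Pre-CD8 DCs, against 10.83, 11.58 and 11.63 in Zbtb46+ CDPs, and the difference without the arrays low in Xist was -0.45 (SE 0.0755, limma adjusted p = 0.00769). The checkpoint had 3 of its 4 genes lower in that setting: Bub1, the kinase Ttk, also known as Mps1, and Mad2l1. Ttk, the checkpoint gene with the largest F, read 8.79, 8.53 and 8.77 in Pre-CD8 DCs, against 8.77, 9.23 and 9.46 in Zbtb46+ CDPs. With all arrays the groups overlapped through replicate 1 and the difference was -0.45 (SE 0.167, limma adjusted p = 0.169). Without the arrays low in Xist it was -0.64 (SE 0.105, limma adjusted p = 0.007).

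The 4 genes higher in Pre-CD8 DCs in that setting were Pttg1, Cdc20, Ccnb2 and Cenpa. Cdc20, the activator that brings the APC/C to securin, read 10.37, 10.37 and 10.47 in Pre-CD8 DCs, against 10.25, 10.02 and 10.00 in Zbtb46+ CDPs. The arrays did not overlap, and the difference was 0.40 without the arrays low in Xist (SE 0.0717, limma adjusted p = 0.00976). With replicate 1 of the Zbtb46+ CDPs alone left out, Pttg1 was the 1 gene called higher (9.05% of all genes).

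**Figure D4:**
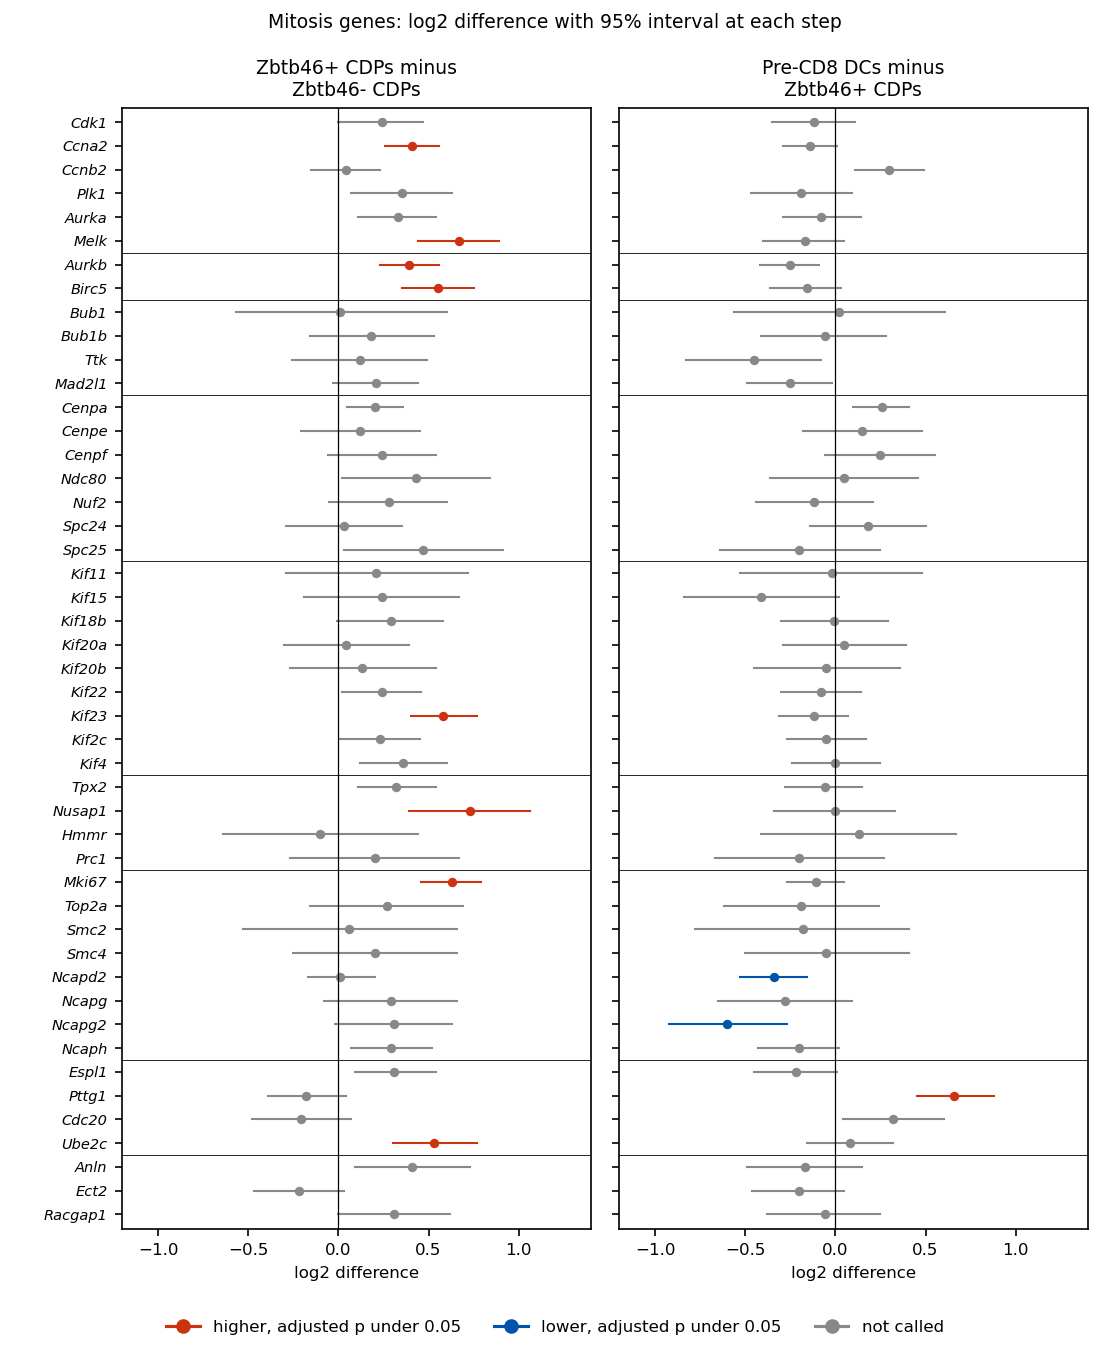
Points give the log2 difference of each of the 47 mitosis genes, with lines for the 95% interval, for Zbtb46+ minus Zbtb46- CDPs in the left panel and Pre-CD8 DCs minus Zbtb46+ CDPs in the right panel, red for called higher and blue for called lower. In the left panel 8 genes are red, and in the right one Pttg1 is red at 0.66 and Ncapd2 and Ncapg2 are blue at -0.34 and -0.60.

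Over the whole axis, 11 of 47 genes rose in Pre-CD8 DCs relative to Zbtb46- CDPs (6.43% of all genes) and 2 fell (9.23% of all genes). The median difference was 0.16, against 0.01 over all genes. All 3 Pre-CD8 DC arrays lay above the Zbtb46- arrays in 20 genes (14.4% of all genes) and below in 4 (19.2% of all genes). Nusap1 rose by 0.72 (SE 0.147, limma adjusted p = 0.0091), Ube2c by 0.61, Mki67 by 0.52, Melk by 0.49, Kif23 by 0.46, Birc5 by 0.39 and Ccna2 by 0.27. Aurkb differed by 0.14 and was not called. This comparison uses the same Zbtb46- arrays as that between the CDP populations. The count of 11 became 16 without the arrays low in Xist (9.4% of all genes), including all 11. It fell to 7 without replicate 1 or 3 of the Pre-CD8 DCs or replicate 2 or 3 of the Zbtb46- CDPs. The share of all genes is not given for the settings with 7, so that fall is not read as a result about these genes.

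The remaining 4 genes that rose over the axis were Pttg1, Ccnb2, Cenpa and Cenpf. Cenpa, the histone H3 variant that marks centromeres, read 11.23, 11.17 and 11.17 in Pre-CD8 DCs, against 10.83, 10.65 and 10.72 in Zbtb46- CDPs, with Zbtb46+ CDPs in between at 10.92, 10.94 and 10.94. It rose by 0.46 (SE 0.0680, limma adjusted p = 0.00155), while neither step passed alone. Ccnb2, which encodes cyclin B2, read 10.90, 10.98 and 10.92 in Pre-CD8 DCs, against 10.72, 10.45 and 10.62 in Zbtb46- CDPs, and rose by 0.34 (SE 0.0842, limma adjusted p = 0.0241). Cenpf, a kinetochore protein gene, read 9.29, 8.90 and 9.2 in Pre-CD8 DCs, against 8.79, 8.47 and 8.68 in Zbtb46- CDPs. Its arrays did not overlap and it rose by 0.49 (SE 0.133, limma adjusted p = 0.0369), although its F test over the 3 populations did not pass (adjusted p = 0.0748).

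The 2 genes that fell over the axis were Ncapd2 and Ect2. Ect2, the exchange factor that activates RhoA at the cleavage furrow, read 9.42, 9.19 and 9.66 in Pre-CD8 DCs, against 9.89, 9.88 and 9.77 in Zbtb46- CDPs. It fell by 0.42 on the log2 scale (SE 0.112, limma adjusted p = 0.0312), with an F test that did not pass (adjusted p = 0.0643). Ncapd2 read 10.64, 10.38 and 10.54 in Pre-CD8 DCs, against 10.89, 10.85 and 10.82 in Zbtb46- CDPs, and fell by 0.33 on the log2 scale (SE 0.0830, limma adjusted p = 0.0254). No array overlapped in either gene. Both calls depended on the setting: of 19 settings, Ect2 passed in 9, with differences of -0.54 to -0.31, and Ncapd2 in 12, with differences of -0.39 to -0.26. Both were lost without any 1 of the Zbtb46- arrays or without replicate 2 of the Pre-CD8 DCs, Ect2 also without replicate 1 and Ncapd2 also without replicate 3 of the Pre-CD8 DCs.

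A further contrast set the Zbtb46+ CDPs against the mean of Pre-CD8 DCs and Zbtb46- CDPs, which tests for a departure from the midpoint of the 2 and not whether the middle population lay outside both. Ccna2, Melk, Aurkb, Birc5, Kif23 and Mki67 were higher, 6 of 47 (1.36% of all genes), and Pttg1 was lower (6.26% of all genes). Differences of the 6 ran from 0.28 for Ccna2 to 0.42 for Melk, and Pttg1 differed by -0.42 (SE 0.082, limma adjusted p = 0.0182). All 3 Zbtb46+ arrays lay above all 6 others in Ccna2, Melk, Aurkb and Birc5, 4 genes (3.71% of all genes), while Mki67 and Kif23 overlapped Pre-CD8 DCs. They lay below all 6 in 0 genes (5.88% of all genes). The count of 6 was 2 without replicate 1 of the Pre-CD8 DCs or replicate 2 of the Zbtb46+ CDPs. It was 3 without replicate 2 of the Pre-CD8 DCs, replicate 3 of the Zbtb46+ CDPs or replicate 3 of the Zbtb46- CDPs. The share of all genes is not given for these settings, so the lower counts are not read as results about these genes. The Pttg1 call was lost without replicate 2 of the Zbtb46+ CDPs or replicate 3 of the Zbtb46- CDPs. Without the arrays low in Xist, 22 were higher (7.54% of all genes), including all 6, and 2 lower (12.4% of all genes), Pttg1 and Cdc20.

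The remaining 32 genes passed in no pairwise comparison. Their differences ran from -0.21 to 0.47 for Zbtb46+ minus Zbtb46- CDPs, from -0.45 to 0.32 for Pre-CD8 DCs minus Zbtb46+ CDPs and from -0.34 to 0.48 for Pre-CD8 DCs minus Zbtb46- CDPs, and the lowest limma adjusted p was 0.0509. They were Cdk1, Plk1 and Aurka among the kinases, all 4 checkpoint genes, Cenpe, Ndc80, Nuf2, Spc24 and Spc25 of the kinetochore, 8 kinesins, Tpx2, Hmmr and Prc1 of the spindle, Top2a, Smc2, Smc4, Ncapg and Ncaph of the chromosomes, Espl1 and Cdc20 of anaphase entry, and Anln and Racgap1 of cytokinesis.

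Other genes of the same processes were read from 4 lists of related genes. Among 59 further mitosis genes, 14 rose (23.7%, against 3.85% of all genes) and 1 fell (1.69%, against 10.6%) in Zbtb46+ over Zbtb46- CDPs, with a median of 0.24, the same as for the 47. Esco2, the acetyltransferase that establishes cohesion, rose by 0.86 (SE 0.0758, limma adjusted p = 0.000189), and Foxm1, a transcription factor of late cell cycle genes, by 0.65 (SE 0.0844, limma adjusted p = 0.0013). Depdc1a rose by 0.76, and Zwint, a kinetochore gene, fell by 0.68 on the log2 scale. At the later step 0 of the 59 rose (4.76% of all genes) and 5 fell (8.47%, against 1.86%) in Pre-CD8 DCs relative to Zbtb46+ CDPs. Mybl2, a transcription factor of the cell cycle, fell by 0.79 on the log2 scale (SE 0.105, limma adjusted p = 0.00264), the mitotic kinase gene Mastl by 0.63, the centriole gene Stil by 0.54 and Esco2 by 0.51. Over the axis 9 rose (15.3%, against 6.43%), among them Depdc1a by 0.70 and Ube2s by 0.64, and 4 fell (6.78%, against 9.23%), among them Zwilch by 0.95 and Zwint by 0.77. Against the mean of the other populations, Esco2, Mybl2, Mastl and Foxm1 were higher in Zbtb46+ CDPs by 0.68, 0.55, 0.55 and 0.44. Without the arrays low in Xist, 22 of the 59 rose and 1 fell in Zbtb46+ over Zbtb46- CDPs (8.71% and 13.8% of all genes). At the later step 2 then rose and 11 fell (12.5% and 7.87%), and over the axis 20 rose and 6 fell (9.4% and 10.8%).

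Of 11 APC/C subunit genes, 0 rose (3.85% of all genes) and 5 fell (45.5%, against 10.6%) in Zbtb46+ over Zbtb46- CDPs, with a median of -0.37. Cdc16 fell by 0.69 on the log2 scale (SE 0.199, limma adjusted p = 0.0484), Cdc26 by 0.57 (SE 0.111, limma adjusted p = 0.00874), Anapc4 by 0.50 and Cdc27 by 0.43. Over the axis 5 fell (45.5%, against 9.23%), among them Anapc1, Cdc26, Anapc5 and Cdc23 by 0.69, 0.56, 0.47 and 0.41. Of 9 cohesin and cohesin regulator genes, 0 rose and 1, Pds5b, fell by 0.29 between the CDP populations (11.1%, against 10.6%), a call that was lost without the arrays low in Xist. At the later step Pds5a fell by 0.40 (11.1%, against 1.86%), and over the axis Pds5b, Pds5a and Smc1a fell by 0.53, 0.47 and 0.38 (33.3%, against 9.23%).

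Of 33 DNA replication genes, 0 rose and 14 fell (42.4%, against 10.6% of all genes) in Zbtb46+ over Zbtb46- CDPs, with a median of -0.32, and 0 rose and 17 fell (51.5%, against 1.86%) in Pre-CD8 DCs relative to Zbtb46+ CDPs, with a median of -0.48. Between the CDP populations Orc1, Mcm7, Mcm6 and Rfc3 fell by 0.67, 0.61, 0.61 and 0.59, and at the later step Pola1, Pole, Mcm2 and Lig1 fell by 0.96, 0.90, 0.88 and 0.80. Over the axis 30 of 33 fell (90.9%, against 9.23%), with a median of -0.80. Mcm2, a subunit of the replicative helicase, fell by 1.41 on the log2 scale (SE 0.0852, limma adjusted p = 6.3e-06), Mcm6, another subunit, by 1.39, Orc1, of the origin recognition complex, by 1.34 (SE 0.0878, limma adjusted p = 1.02e-05) and Mcm3 by 1.32. Pole, Lig1 and Cdc45 were higher in Zbtb46+ CDPs than the mean of the other populations, by 0.42, 0.32 and 0.29.

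**Figure D5:**
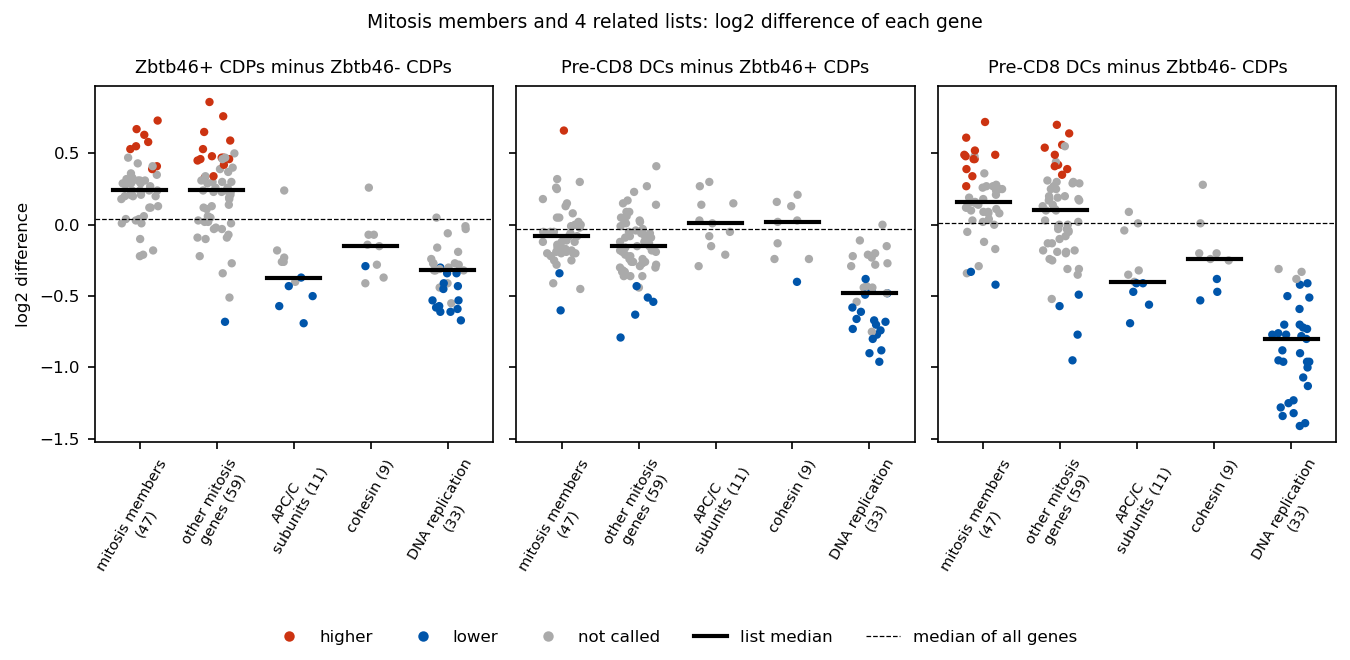
Points give the log2 difference of every gene in the mitosis list, the further mitosis genes, the APC/C subunits, cohesin and DNA replication for each comparison, with a line at the list's median. The mitosis median is 0.16 and the replication median -0.80 for Pre-CD8 DCs minus Zbtb46- CDPs.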

How the data were processed

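Per the labels' protocols, total RNA from sorted marrow cells was labelled with the Affymetrix WT Pico kit and hybridised as 1 biotin-labelled sample per array. Per the submitters' processing notes, the authors summarised the arrays with RMA in Affymetrix Expression Console, whose version, background and normalisation settings are not given in the sources used here. The deposited values are a signal intensity per probe set for 28853 probe sets and 9 arrays, and they run from 7.45 to 20455.6 with array medians of 110.2 to 118.0, so they are on a linear scale, although log2 values had been assumed, and log2 was taken. RMA as usually run makes arrays alike in their overall distribution, so a change shared by most genes would not be seen. No 2 arrays were duplicates. Precision is limited by having 3 arrays a population.

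GEO's platform annotation gave 21789 probe sets exactly 1 symbol and 1621 several, and 5443 were not in it. The 19938 genes are their one-symbol probe sets, of several the one with the highest mean. A model of the 3 group means was fitted to all genes and 9 arrays by lmFit and eBayes of limma 3.58.1 under R 4.3.3, with 6 residual degrees of freedom before moderation, and p-values were adjusted by Benjamini-Hochberg over all genes. Python 3.11.15 served for the tables and plots. The steps were tested on simulated data.

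The genes, lists and settings were chosen with earlier results of these data known. Values are given for each mitosis gene called in any comparison, for the gene with the largest F in a role without calls, and for up to 4 called genes of each related list, those with the largest change. Genes outside this rule (Aurka, Bub1, Smc2, Smc4, Hmmr, Kif11, Plk1, Ndc80, Top2a, Cdc20, Espl1, Cdca8, Incenp, Ncapd3, Ncaph2, Xist, Eif2s3y, the 4 monocyte genes and the other single marker genes) were picked with their values in view. As a check of pairing, residuals of arrays with equal numbers correlated by 0.51, 0.42 and 0.36 between the CDP populations. They correlated by -0.03 to 0.03 between Pre-CD8 DCs and Zbtb46- CDPs and by 0.07 to 0.17 between Pre-CD8 DCs and Zbtb46+ CDPs. Unequal numbers gave -0.51 to 0.38 between the CDP populations. The 0.38 was for replicate 2 of the Zbtb46+ and replicate 3 of the Zbtb46- CDPs, above the 0.36 of the replicates 3. The check thus cannot show that replicates 2 and 3 are paired, and the reported model used no pairing. Alternatives were a filter on dim genes, other uses of several probe sets, 2 scalings, moderation with trend, a replicate block, fits of 2 groups, a stricter threshold and arrays left out.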

Additional observations from a re-analysis of the deposited data

How the results depend on the processing

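Of 590 values of the called mitosis genes under the alternatives, 495 kept their direction and their side of the threshold, 95 kept the direction but no longer passed, and 0 reversed. Of 170 counts of called mitosis genes, 116 stayed within 1.5 times of the reported count. These include counts of 0 that stayed 0, as for genes lower in Zbtb46+ than in Zbtb46- CDPs. Counts below are of the 47 mitosis genes, with the share of all genes called in brackets for some settings. A count without that share cannot be set against its background here.

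For Zbtb46+ minus Zbtb46- CDPs, the 8 higher genes became 16 with quantile normalisation (6.10% of all genes) and 25 without the arrays low in Xist (8.71%). They became 8 to 25 with 1 array left out, the 25 again being without replicate 1 of the Zbtb46+ CDPs (10%). None was lower in any of these settings. With the replicate number as a block, 12 were higher (5.06% of all genes), all 8 among them, the others being Plk1, Aurka, Kif4 and Espl1. A block in the 2 CDP populations alone, chosen after seeing the data, gave 11.

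For Pre-CD8 DCs minus Zbtb46+ CDPs, the 1 higher gene became 2 with median scaling and 4 without the arrays low in Xist (12.5% of all genes), and 1 to 2 with 1 array left out. The 2 lower genes became 4 with quantile normalisation (3.28% of all genes), 1 with the replicate block (2.24%) and 13 without the arrays low in Xist (7.87%). They became 0 with median scaling, with trend and robust moderation, with the groups compared alone or at an adjusted p under 0.01, and 0 to 12 with 1 array left out.

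For Pre-CD8 DCs minus Zbtb46- CDPs, the 11 higher genes became 16 without the arrays low in Xist (9.4% of all genes) and 7 at an adjusted p under 0.01. They became 7 to 14 with 1 array left out, the 14 being without replicate 1 of the Zbtb46+ CDPs (8.81%). The 2 lower genes became 1 with quantile normalisation (9.27% of all genes), without the arrays low in Xist (10.8%) or with the groups compared alone. They became 0 with median scaling or at an adjusted p under 0.01, and 0 to 2 with 1 array left out.

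For Zbtb46+ CDPs minus the mean of the other 2 populations, the 6 higher genes became 11 with quantile normalisation (3.08% of all genes) and 22 without the arrays low in Xist (7.54%). They became 0 at an adjusted p under 0.01, and 2 to 22 with 1 array left out. The 1 lower gene became 0 with quantile normalisation or at an adjusted p under 0.01, 2 without the arrays low in Xist (12.4% of all genes), and 0 to 1 with 1 array left out. The F test called 13 of the genes in the reported model (27.7%, against 19.1% of all genes), 32 without the arrays low in Xist, and 10 to 28 with 1 array left out. The share of all genes is given only for the reported model, so the other F counts are not read as results about these genes. The cause of these changes was not tested. With 3 arrays a population, a difference that misses the threshold does not show that populations are alike.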
